A study of Mus musculus with 8 samples.

Results

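The genes of prostaglandin synthesis and prostaglandin E2 reception were examined in RNA-seq data from mouse wound skin. The 10 genes were taken by their symbols from the table of counts, which held 18540 genes: the cyclooxygenases Ptgs1 and Ptgs2, the terminal synthases Ptges, Ptgds and Ptgis, the degrading enzyme Hpgd, and the receptors Ptger1, Ptger2, Ptger3 and Ptger4. All 10 were present, and all 10 passed the filter on low counts among the 15147 genes tested.

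The study asked how the nanocomposite ZnO2/CeO2@ZIF-8 (ZCZ), which was made to supply oxygen and to remove reactive oxygen species, altered gene transcription in skin wounds. RNA of 4 control samples and 4 treated samples was sequenced after ribosomal RNA had been removed. The sample titles read con1, con2, con3 and con5 for the controls and shiyan1, shiyan2, shiyan4 and shiyan5 for the treated samples, where shiyan is the Chinese word for experiment. The treated samples are written Z1C2Z below, the name of the ZCZ variant made with more CeO2 relative to ZnO2, since the study's heat map of the sequenced samples labels its columns CON and Z1C2Z with the same numbers, whereas its text speaks of ZCZ only. According to the methods, the wounds were full-thickness dorsal skin wounds, treated wounds received ZCZ for 15 days, and control wounds received PBS. The study wounded both C57BL mice and diabetic db/db mice, which lack a working leptin receptor, and the labels give neither the strain nor the age of the sequenced mice. Each mouse carried more than 1 wound, and the labels do not say which samples share an animal, so the p-values measure only the spread between these samples. The total was between 28856790 and 38249438 counts in the control libraries and between 33966536 and 38974888 counts in the Z1C2Z libraries.

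Prostaglandins are short-lived lipid mediators that act close to the cells that make them. Phospholipases free arachidonic acid from membranes, a cyclooxygenase converts it to prostaglandin H2, and a terminal synthase turns that intermediate into prostaglandin E2, prostaglandin D2 or prostacyclin. Ptgs1 is expressed in many resting cells, whereas Ptgs2 is the form induced by cytokines, injury and growth factors. Prostaglandin E2 signals through the receptors EP1 to EP4, encoded by Ptger1 to Ptger4, and is inactivated by 15-hydroxyprostaglandin dehydrogenase, encoded by Hpgd. In skin it is known for vasodilation, for making pain endings more sensitive and for the early inflammation of a wound, and prostaglandin D2 is known for restraining hair growth.

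The 10 genes did not move together. The inducible cyclooxygenase Ptgs2 and the inducible prostaglandin E synthase Ptges fell in the Z1C2Z wounds, and the lipocalin-type prostaglandin D synthase Ptgds rose. The prostaglandin-degrading Hpgd was also higher, by less than the fold threshold, and the constitutive Ptgs1 and the receptors Ptger1 to Ptger4 did not pass the test. Genes were tested with edgeR's quasi-likelihood method, p-values were adjusted by Benjamini-Hochberg over 15147 genes, and a gene was called where the adjusted p was under 0.05 and the absolute log2 fold change was over 1. By this rule 1 of the 10 genes was called higher, where 2.15% of all genes tested were, and 2 were called lower, where 1.25% were. Without the fold threshold 2 were higher and 2 lower, against 4.28% and 3.85% of all genes. In 2 of the 10 every Z1C2Z library lay above every control library, as in 8.45% of all genes, and in 2 every Z1C2Z library lay below every control library, as in 8.82%. Of the 10 log2 fold changes 5 were positive and 5 negative, and their median was -0.03, beside 0.01 over all genes tested.

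The promoter windows of the called genes and of Hpgd are shown because these are the genes that differed between the groups. They run from 250 bases before to 50 bases after the annotated start, and were taken from RefSeq in build GRCm38.p6, which held windows for 8 of the 10 genes. Capitals mark the motifs found on either strand among the TATA box TATAAA, the E-box CACGTG, the AP-1 element TGANTCA, the cyclic AMP response element TGACGTCA and its shorter form TGACG, the C/EBP element TTGCGCAA and the NF-kappa B consensus. The windows were chr1:150099781-150100080 on the plus strand for Ptgs2, chr2:30903248-30903547 on the minus strand for Ptges, chr2:25469700-25469999 on the minus strand for Ptgds, and chr8:56294302-56294601 on the plus strand for Hpgd.
Ptgs2: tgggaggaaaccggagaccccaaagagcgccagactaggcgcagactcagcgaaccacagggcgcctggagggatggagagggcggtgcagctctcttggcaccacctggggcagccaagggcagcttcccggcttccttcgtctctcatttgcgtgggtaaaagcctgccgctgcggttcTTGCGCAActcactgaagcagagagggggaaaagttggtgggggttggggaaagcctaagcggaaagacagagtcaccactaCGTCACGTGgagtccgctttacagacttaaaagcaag
Ptges: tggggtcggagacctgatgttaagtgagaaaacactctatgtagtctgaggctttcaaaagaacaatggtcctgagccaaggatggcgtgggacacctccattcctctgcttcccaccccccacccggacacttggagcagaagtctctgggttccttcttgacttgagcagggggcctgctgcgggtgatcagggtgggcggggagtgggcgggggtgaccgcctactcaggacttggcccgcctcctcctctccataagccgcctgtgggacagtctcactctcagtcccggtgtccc
Ptgds: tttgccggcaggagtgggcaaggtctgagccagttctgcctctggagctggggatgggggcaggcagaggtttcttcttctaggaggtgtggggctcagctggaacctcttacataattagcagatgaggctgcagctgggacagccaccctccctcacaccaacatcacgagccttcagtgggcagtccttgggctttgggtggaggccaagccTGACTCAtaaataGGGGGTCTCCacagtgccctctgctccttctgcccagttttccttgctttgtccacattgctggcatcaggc
Hpgd: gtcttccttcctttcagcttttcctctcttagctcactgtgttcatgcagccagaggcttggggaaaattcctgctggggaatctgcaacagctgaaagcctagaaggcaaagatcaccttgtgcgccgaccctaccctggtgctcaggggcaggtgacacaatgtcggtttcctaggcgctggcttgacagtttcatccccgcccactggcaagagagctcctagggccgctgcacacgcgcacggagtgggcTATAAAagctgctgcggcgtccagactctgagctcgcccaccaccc

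The Ptgs2 window held TTGCGCAA at positions -69 to -62, a sequence found in 0.183% of 32851 promoter windows. It also held TGACG on the reverse strand at positions 14 to 18, overlapping CACGTG at positions 17 to 22, and these stood in 20.8% and 7.15% of all windows. The Ptgds window held TGANTCA at positions -35 to -29 and the NF-kappa B consensus at positions -22 to -13, present in 7.81% and 4.51% of all windows. The Hpgd window held TATAAA at positions 5 to 10, present in 13.6% of windows, and that of Ptges held none of the motifs. Of the 8 windows 5 held no motif, and TGACGTCA, present in 1.79% of all windows, was in none of the 8. These are matches of letters, and binding was not measured.

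**Figure D1:**
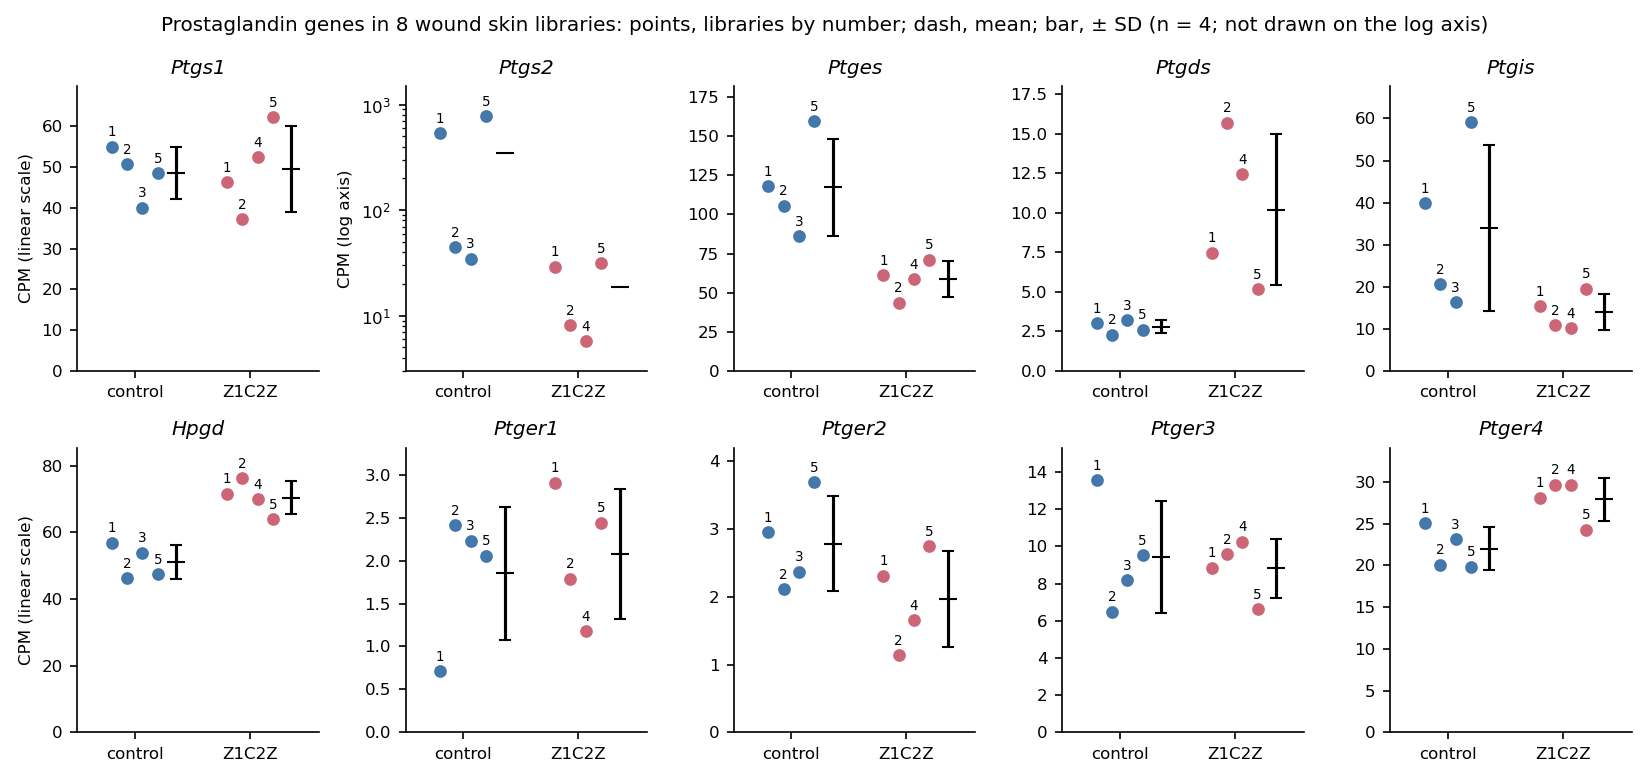
TMM-scaled counts relative to library size (CPM) of the 10 genes in the 4 control and 4 Z1C2Z libraries, numbered as in the titles; dashes are means and bars SDs, and Ptgs2 is drawn on a log axis without an SD. The Z1C2Z points of Ptgs2 and Ptges lie below every control point, and those of Ptgds and Hpgd above every control point.

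Ptgs2 (Entrez 19225), the inducible cyclooxygenase, was the gene of the 10 with the largest difference. It measured 537, 44.5, 34.6 and 776 CPM in the controls, which are given here and below in the order of control-1, -2, -3 and -5, and CPM are TMM-scaled counts relative to library size. Z1C2Z-1, -2, -4 and -5 had 29.2, 8.08, 5.72 and 31.6 CPM. The groups did not overlap, but the control group was split: control-1 and control-5 were more than 10 times as high as control-2 and control-3, whose values lay close to those of Z1C2Z-1 and Z1C2Z-5. The means were 348 ± 369 CPM in the controls and 18.7 ± 13.6 CPM in Z1C2Z (SD, n = 4 each), an 18.7-fold difference of means. The fitted log2 fold change was -4.22 (SE 1.11, 95% confidence interval -6.72 to -1.73), with an adjusted p of 0.0494 in edgeR. The exact two-sided permutation test of mean log2 CPM gave p = 0.0286, the smallest that the 70 arrangements allow, and 0.165 after adjustment over all genes. In edgeR the adjusted p was 0.0652 without control-1, 0.0604 without control-2, 0.125 without control-5, and 0.0895, 0.141, 0.134 and 0.0548 without Z1C2Z-1, -2, -4 and -5, and it passed the threshold only without control-3 (0.0349).

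Ptgs1 (Entrez 19224), the constitutive cyclooxygenase, showed no such split. Its control values were 55.0, 50.8, 40.0 and 48.5 CPM, and its Z1C2Z values 46.3, 37.2, 52.4 and 62.3 CPM. The groups overlapped fully, with a log2 fold change of 0.03 (SE 0.16, 95% confidence interval -0.34 to 0.39) and an adjusted p of 0.925 in edgeR. Per kilobase of exon, the level of Ptgs2 was 8.28 and 13.6 times that of Ptgs1 in control-1 and control-5, but 0.743 and 0.733 times in control-2 and control-3. In the Z1C2Z libraries this ratio was 0.535, 0.184, 0.0926 and 0.431. Transcripts of the inducible form thus exceeded those of the constitutive form in control-1 and control-5 and in none of the other 6 libraries.

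Ptges (Entrez 64292), the microsomal prostaglandin E synthase that is often induced together with Ptgs2, fell to a level 2.00-fold below the controls. It measured 118, 106, 86.2 and 160 CPM in the controls and 61.2, 43.5, 58.6 and 71.1 CPM in Z1C2Z. Every control library lay above every Z1C2Z library, and the spread within the control group was far smaller than for Ptgs2. The means were 117 ± 31.1 and 58.6 ± 11.4 CPM (SD, n = 4 each). The log2 fold change was -1.002 (SE 0.20, 95% confidence interval -1.46 to -0.54), just past the fold threshold, with an adjusted p of 0.0306 in edgeR. In the exact permutation test p was again the smallest possible, 0.0286, and 0.165 after adjustment over all genes. With upper quartile factors its log2 fold change was -0.96, short of the fold threshold. The edgeR adjusted p was 0.0597 without control-2, 0.0789 without control-5, and 0.0678, 0.0923 and 0.0932 without Z1C2Z-1, -2 and -4.

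Ptgis (Entrez 19223), prostacyclin synthase, was lower on average without passing the test. Its values were 39.8, 20.6, 16.3 and 59.1 CPM in the controls and 15.3, 10.9, 10.2 and 19.5 CPM in Z1C2Z. Only control-3 fell within the Z1C2Z range. The log2 fold change was -1.28 (SE 0.40, 95% confidence interval -2.18 to -0.38), with an adjusted p of 0.0773 in edgeR and an exact permutation p of 0.0571. Without control-3 it passed both thresholds in edgeR, with a log2 fold change of -1.51 and an adjusted p of 0.0443. The 3 genes Ptgs2, Ptges and Ptgis ranked the control libraries alike, with control-5 highest, then control-1, control-2 and control-3. All 3 also had Z1C2Z-5 and then Z1C2Z-1 as the highest Z1C2Z libraries. This order was not particular to the 3 genes. The first principal component of log2 CPM over all genes tested, the axis of largest variance (62.2%), placed these libraries in the same order. It was -62.9 in control-5, -50.6 in control-1, -35.5 in control-2 and -12.2 in control-3, then -0.291 in Z1C2Z-5 and 28.1 in Z1C2Z-1.

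Ptgds (Entrez 19215), the lipocalin-type prostaglandin D synthase, was the single called gene that rose. It measured 3.02, 2.30, 3.22 and 2.62 CPM in the controls and 7.47, 15.7, 12.5 and 5.16 CPM in Z1C2Z, from 83 to 117 counts and 186 to 607 counts per library. The control values lay close together, and the Z1C2Z values were spread over a wider range wholly above them. The means were 2.79 ± 0.411 and 10.2 ± 4.78 CPM (SD, n = 4 each), 3.66-fold higher in Z1C2Z. The log2 fold change was 1.87 (SE 0.33, 95% confidence interval 1.12 to 2.62), with an adjusted p of 0.0299 in edgeR. In the exact permutation test p was 0.0286, and 0.165 after adjustment over all genes. The edgeR adjusted p was 0.0591 without control-2, 0.0783 without control-5, and 0.0661, 0.0888 and 0.0876 without Z1C2Z-1, -2 and -4.

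Hpgd (Entrez 15446), the dehydrogenase that inactivates prostaglandin E2, was 1.38-fold higher in Z1C2Z. Its control values were 56.9, 46.2, 54.0 and 47.5 CPM and its Z1C2Z values 71.7, 76.2, 69.9 and 64.0 CPM. Both groups were tight and did not overlap, with means of 51.2 ± 5.14 and 70.4 ± 5.03 CPM (SD, n = 4 each). The log2 fold change was 0.46 (SE 0.10, 95% confidence interval 0.24 to 0.68) with an adjusted p of 0.0322 in edgeR, past the adjusted threshold and short of the fold threshold. In the exact permutation test p was 0.0286, and 0.165 after adjustment over all genes. Without control-2 or control-5 its adjusted p was 0.0701 or 0.0860, and without Z1C2Z-1, -2 or -4 it was 0.0690, 0.0947 or 0.0932. The ratio of Ptges, 1 of the prostaglandin E synthases, to Hpgd was 0.886, 0.979, 0.684 and 1.44 per kilobase in the controls. In Z1C2Z it was 0.365, 0.245, 0.359 and 0.476. This ratio did not overlap between the groups, which follows from the values of its parts and was not tested. It leaves out the synthases Ptges2 and Ptges3, whose log2 fold changes were 0.18 and -0.02. Per kilobase the mean of Ptges3 was 88.2 in the controls and 86.9 in Z1C2Z, above that of Ptges.

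None of the 4 prostaglandin E2 receptors was called in edgeR, and 1 had an unadjusted p under 0.05. That gene, Ptger4, had an adjusted p of 0.0473 in DESeq2, short of the fold threshold. Ptger4 (Entrez 19219), which raises cyclic AMP, had 25.1, 20.1, 23.1 and 19.8 CPM in the controls and 28.1, 29.7, 29.7 and 24.3 CPM in Z1C2Z. Only Z1C2Z-5 lay within the control range, and the log2 fold change was 0.34 (SE 0.11, 95% confidence interval 0.09 to 0.60), with an edgeR adjusted p of 0.0866 and an exact permutation p of 0.0571. Ptger2 (Entrez 19217), which also raises cyclic AMP, had 2.95, 2.11, 2.37 and 3.69 CPM in the controls and 2.31, 1.14, 1.66 and 2.74 CPM in Z1C2Z. These ranges overlapped, with a log2 fold change of -0.50 (SE 0.31, 95% confidence interval -1.20 to 0.19) and an edgeR adjusted p of 0.318.

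Ptger3 (Entrez 19218), which lowers cyclic AMP, had 13.6, 6.49, 8.18 and 9.52 CPM in the controls and 8.86, 9.59, 10.2 and 6.63 CPM in Z1C2Z. The log2 fold change was -0.09 (SE 0.23, 95% confidence interval -0.62 to 0.43), with an edgeR adjusted p of 0.819. Ptger1 (Entrez 19216), which acts through calcium, had 0.711, 2.41, 2.23 and 2.06 CPM in the controls and 2.90, 1.79, 1.18 and 2.44 CPM in Z1C2Z. It had between 20 and 103 counts per library, and its log2 fold change of 0.16 had a 95% confidence interval of -0.75 to 1.06, with an edgeR adjusted p of 0.828.

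**Figure D2:**
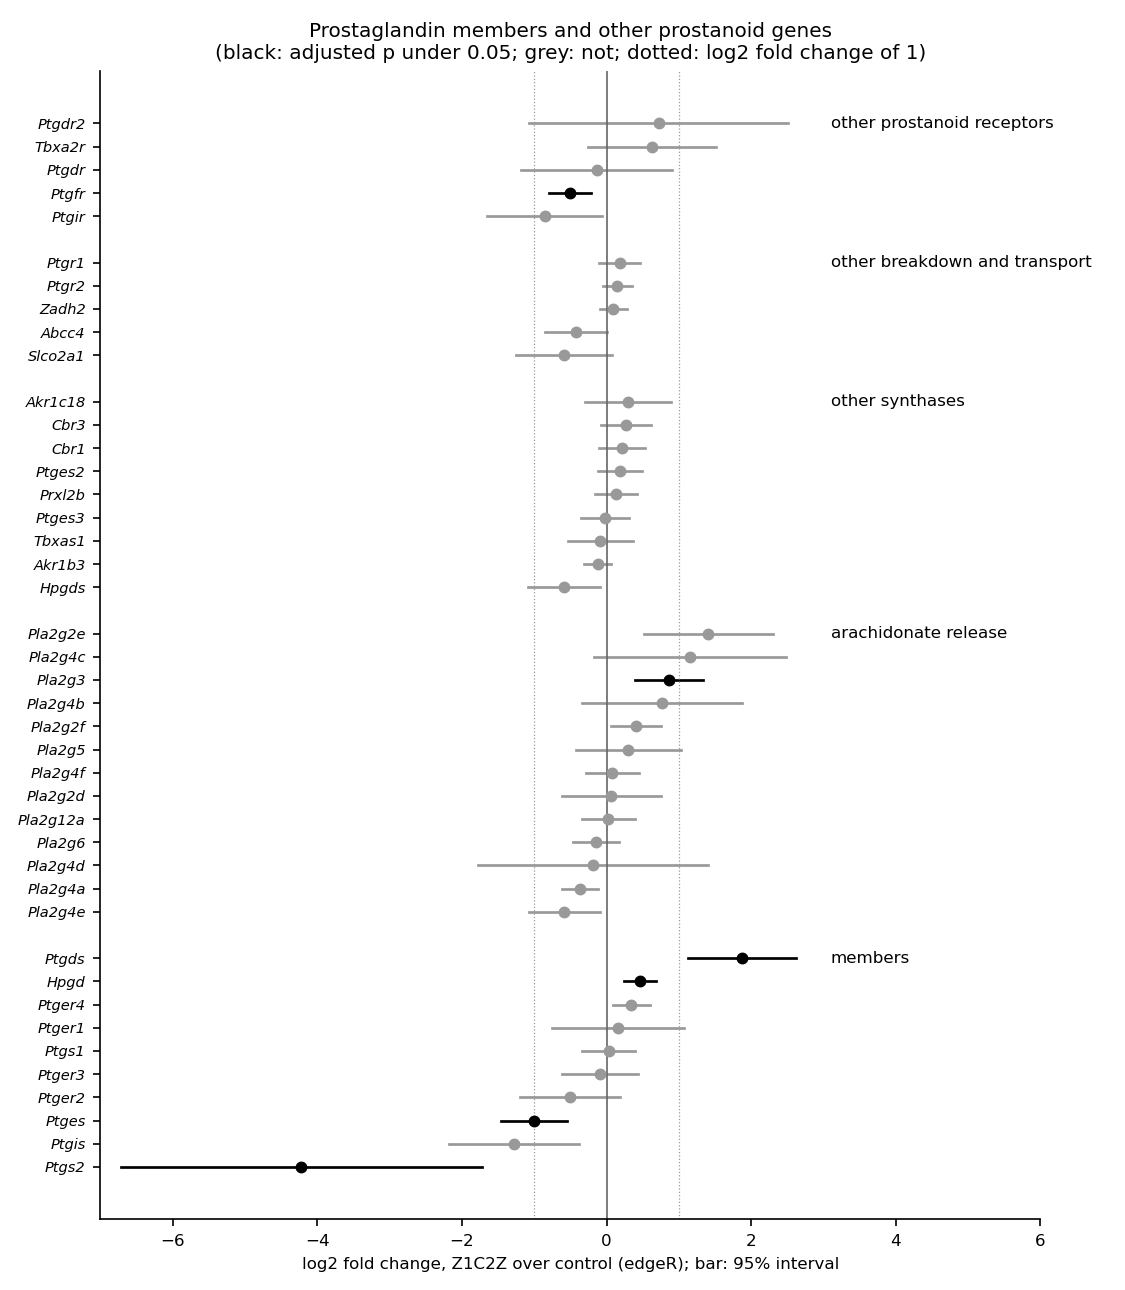
Log2 fold change of Z1C2Z against control for the 10 genes and, grouped by role, 32 other genes of the prostanoid pathway. Bars are 95% confidence intervals from edgeR's quasi-likelihood fit, black where the adjusted p was under 0.05 and grey where not. Ptgs2 has the widest interval, from -6.72 to -1.73, and Hpgd a narrow one, from 0.24 to 0.68.

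Levels were compared between genes as CPM per kilobase of exon, with exon lengths from GENCODE vM21. In the controls the order of mean levels was Ptgs2 (76.0), Hpgd (30.4), Ptges (29.9), Ptgis (13.2), Ptgs1 (12.5), Ptger4 (3.31), Ptgds (1.69), Ptger3 (1.66), Ptger2 (0.535) and Ptger1 (0.339). The first place of Ptgs2 rested on control-1 and control-5, since its SD of 80.7 exceeded its mean. Hpgd and Ptges, Ptgis and Ptgs1, and Ptgds and Ptger3 differed by less than the larger of their SDs. In Z1C2Z the order was Hpgd (41.9), Ptges (14.9), Ptgs1 (12.8), Ptgds (6.19), Ptgis (5.44), Ptger4 (4.20), Ptgs2 (4.07), Ptger3 (1.55), Ptger1 (0.381) and Ptger2 (0.378). Ptges and Ptgs1, the neighbours from Ptgds to Ptger3, and Ptger1 and Ptger2 differed by less than the larger of their SDs, so the place of Ptgs2 among these neighbours is not set. Hpgd stood above every other gene of the set in Z1C2Z.

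Of the summed CPM per kilobase of the 10 genes, Ptgs2 made up 53.4%, 10.6%, 8.78% and 60.3% in the controls and 6.80%, 2.00%, 1.40% and 7.22% in Z1C2Z. Hpgd made up 10.04% to 37.3% in the controls and 39.8% to 51.4% in Z1C2Z. Ptgds made up 0.565% to 2.27% and 3.27% to 10.8%. These shares sum to a fixed total, so that a lower share of Ptgs2 raises the others.

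**Figure D3:**
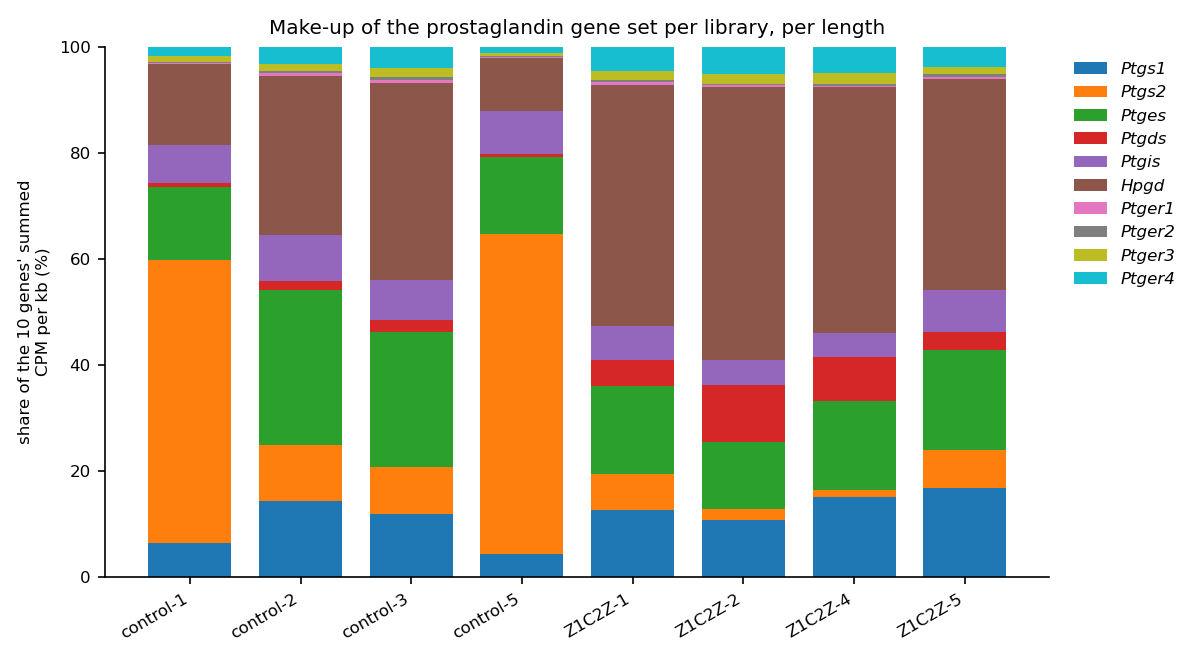
Share of each of the 10 genes in their summed CPM per kilobase of exon, in percent, for each library. Ptgs2 fills 53.4% and 60.3% of the bars of control-1 and control-5, and Hpgd is the largest part of every Z1C2Z bar.

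The genes with the most similar profile over the 8 libraries were found by the root mean square (RMS) difference of log2 CPM, each gene centred on its own mean. Since they were picked over these same libraries, a shared pattern and direction of difference follow from the picking. For Ptgs2, whose own RMS deviation was 2.38, the closest were Csf3 (0.233), which encodes the neutrophil growth factor G-CSF, Nos2 (0.471), the inducible nitric oxide synthase, and Il6 (0.636), an inflammatory cytokine. Csf3 measured 16.3, 1.17, 1.35 and 22.3 CPM in the controls and 0.874, 0.233, 0.0753 and 0.887 CPM in Z1C2Z. Il6 measured 174, 5.19, 7.49 and 150 CPM in the controls and 1.97, 1.24, 0.728 and 3.47 CPM in Z1C2Z. Both shared with Ptgs2 the split of the controls into control-1 and control-5 against control-2 and control-3. Their log2 fold changes were -4.32 and -5.51, and both were called lower, with edgeR adjusted p of 0.0484 and 0.0356. Csf3 was low in Z1C2Z, at 0.887 CPM or less, and its adjusted p lay close to the threshold. Nos2, at -3.34, had an adjusted p of 0.101 in edgeR.

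The closest genes to Ptges, whose own RMS deviation was 0.573, were Hk2 (0.0929), a hexokinase, Adamts1 (0.108), a secreted metalloproteinase, and Slc2a1 (0.123), the glucose transporter GLUT1. Their log2 fold changes were -0.87, -0.91 and -0.95, none past the fold threshold. The closest to Ptgds, whose own RMS deviation was 0.980, were Mlana (0.162), Gpr143 (0.187) and Plb1 (0.192). Mlana and Gpr143 are genes of pigment cells, and Plb1 encodes a phospholipase. Mlana measured 5.90, 4.13, 6.25 and 4.79 CPM in the controls and 15.9, 38.4, 29.7 and 9.81 CPM in Z1C2Z. All 3 were called higher, with log2 fold changes of 2.16, 2.23 and 1.69, and like Ptgds they were highest in Z1C2Z-2 and Z1C2Z-4. This likeness follows from how the 3 genes were picked.

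**Figure D4:**
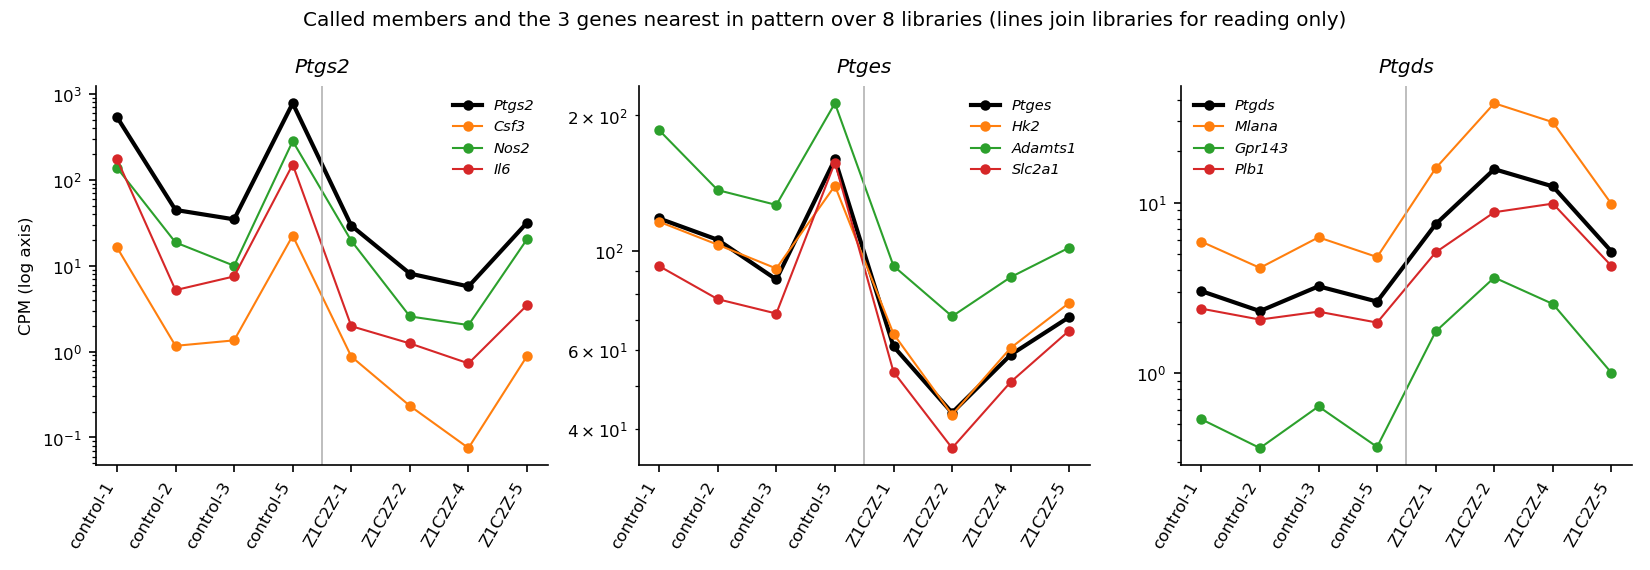
CPM, on a log axis, of Ptgs2, Ptges and Ptgds and of the 3 genes most like each, over the 8 libraries. The lines of Ptgs2, Csf3, Nos2 and Il6 peak in control-1 and control-5, and those of Ptgds, Mlana, Gpr143 and Plb1 in Z1C2Z-2 and Z1C2Z-4.

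The tissue content of the libraries moved with several of these genes, and in bulk tissue fewer cells of a type and less RNA per cell cannot be told apart. The melanocyte markers, a list chosen after the profile of Ptgds was seen, summed to between 151 and 252 CPM in the controls and between 327 and 708 CPM in Z1C2Z, and 8 of its 10 genes were called higher. The 9 hair shaft keratins were all called higher, and their sum was 58.7 to 344 CPM in the controls and 1227, 3546, 3416 and 379 CPM in Z1C2Z-1, -2, -4 and -5. Ptgds ranked the Z1C2Z libraries as the hair shaft sum did. With the hair shaft or the melanocyte score in the edgeR fit no gene of the whole table was called, and since neither sum overlapped between the groups, score and group can hardly be told apart. Without both Z1C2Z-2 and Z1C2Z-4 the log2 fold changes were -3.52 for Ptgs2, -0.83 for Ptges and 1.18 for Ptgds, and none of the 10 genes was called. The part of hair follicle content in the difference of Ptgds was not tested beyond these fits.

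The inflammatory cell markers also differed in level. The 10 neutrophil markers summed to 578, 980, 1513 and 1323 CPM in control-1, -2, -3 and -5 and to 171 to 663 CPM in Z1C2Z, with Ly6g at 0 to 6 counts per library, and of the 9 tested none was called and 4 had an unadjusted p under 0.05. Control-1, which had the second highest Ptgs2, had the lowest neutrophil sum of the controls, and control-3, with the highest neutrophil sum, had the lowest Ptgs2 of the controls. This sum was mostly S100a8 and S100a9, with 525 and 874 CPM in control-3. Csf3r and Cxcr2 were highest in control-2 and Mmp8 in control-5, while Csf3r and Mmp8 were lowest in control-1 as the sum was. The 7 macrophage markers summed to 1606, 1422, 1341 and 1596 CPM in the controls and to 779 to 1373 CPM in Z1C2Z. Their sum ranked control-1 and control-5 highest as Ptgs2 did, but of the single markers only Mrc1 did so (839, 603, 420 and 605 CPM). Csf1r and Cd68 were lowest in control-1, and Adgre1 was highest in control-3. The fibroblast sums were 54834 to 78015 CPM and 43054 to 60493 CPM, the endothelial sums 316 to 840 CPM and 276 to 522 CPM, and the mast cell sums 130 to 233 CPM and 124 to 170 CPM. The keratinocyte sum, which marks the labelled tissue as skin, was 11820 to 14257 CPM and 13148 to 18494 CPM. The 8 skeletal muscle markers summed to 3252 to 5823 CPM in the controls and 2595 to 3027 CPM in Z1C2Z, without overlap. Outside the hair shaft and melanocyte lists edgeR called none of the 49 marker genes tested. Of these, 23 had an unadjusted p under 0.05, as had 4248 of all 15147 genes tested. By type they were 6 of 6 fibroblast, 6 of 8 skeletal muscle, 4 of 7 macrophage, 4 of 9 neutrophil and 3 of 6 endothelial markers. No mast cell or keratinocyte marker was among them. All fibroblast, skeletal muscle, macrophage, endothelial and mast cell markers had negative log2 fold changes, as had 8 of 9 neutrophil and 1 of 7 keratinocyte markers, and 7414 of all genes tested. Without the fold threshold 2 fibroblast and 3 skeletal muscle markers were lower, where 3.85% of all genes tested were. With the muscle score in the edgeR fit no gene was called. Since the muscle sum did not overlap between the groups, score and group can hardly be told apart in that fit. The part of these cells in the differences was not tested.

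**Figure D5:**
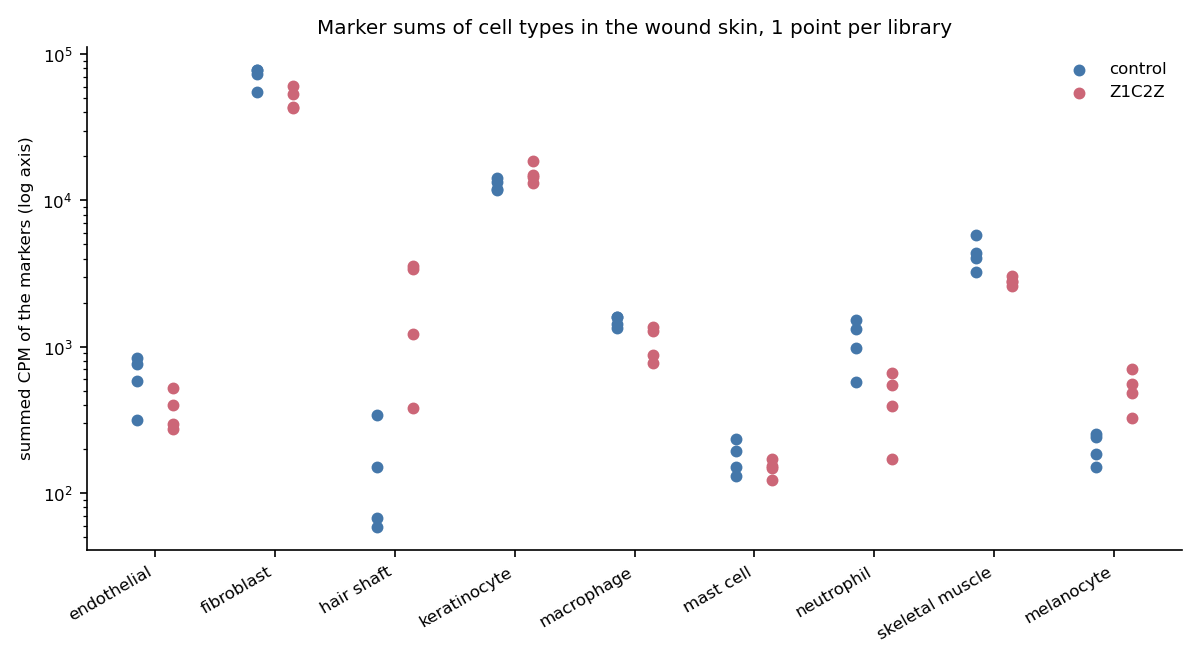
Summed CPM of each cell type marker list in the 8 libraries, on a log axis. The hair shaft sums reach from 379 to 3546 CPM in Z1C2Z and from 58.7 to 344 CPM in the controls, and the skeletal muscle sums lie lower in every Z1C2Z library than in any control.

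Around the 10 genes, 32 other genes of the prostanoid pathway were in the table and all were tested. None was called in either direction by edgeR, where 2.15% of all genes tested were called higher and 1.25% lower. Of the 32, 8 had an unadjusted p under 0.05, as had 4248 of all 15147 genes tested, and DESeq2 called 1 (Pla2g2e) higher and 0 lower. Of the 32, 19 had positive and 13 negative log2 fold changes, and their median was 0.09. Without the fold threshold 1 was higher and 1 lower, against 4.28% and 3.85% of all genes tested. The lower gene was Ptgfr (Entrez 19220), the prostaglandin F2 alpha receptor, with 50.4, 45.8, 51.5 and 38.4 CPM in the controls and 31.3, 27.3, 36.8 and 35.9 CPM in Z1C2Z. The groups did not overlap, and the log2 fold change was -0.50 (SE 0.13) with an edgeR adjusted p of 0.0477. The higher gene was the secreted phospholipase Pla2g3 (Entrez 237625), with 0.888, 1.11, 1.05 and 1.07 CPM against 1.75, 1.66, 1.93 and 2.16 CPM. Its log2 fold change was 0.86 (SE 0.21), with an edgeR adjusted p of 0.0404.

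Another secreted phospholipase, Pla2g2e (Entrez 26970), also lay higher in every Z1C2Z library, with 1.74, 2.05, 2.20 and 2.45 CPM in the controls and 3.33, 7.85, 8.76 and 2.50 CPM in Z1C2Z. Like Ptgds it was highest in Z1C2Z-2 and Z1C2Z-4, and its log2 fold change of 1.41 (SE 0.40) had an adjusted p of 0.0595 in edgeR. Across the 13 genes of arachidonate release the log2 fold changes ran from -0.58 to 1.41, and across the 9 other synthases from -0.59 to 0.30. The lowest of these synthases was Hpgds, the other prostaglandin D synthase, with an edgeR adjusted p of 0.119. It measured 49.2, 42.5, 31.6 and 54.5 CPM in the controls and 35.0, 26.3, 20.2 and 36.8 CPM in Z1C2Z. Per kilobase its means were 6.92 and 4.60, where those of Ptgds were 1.69 and 6.19. The 5 genes of breakdown and transport ran from -0.59 to 0.18, and the 5 other prostanoid receptors from -0.86 to 0.72.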

How the data were processed

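RNA from wound skin of 4 control and 4 Z1C2Z samples was sequenced as rRNA-depleted, dUTP-marked libraries. The authors deposited 1 table of raw counts of reads per gene, without normalization, with gene annotation that they had added, and 0 columns of per-sample values were left unused. The aligner, counter, genome build, annotation and strand setting are not given in the sources used here, so reads of overlapping genes may be shared. The labels name Trizol and the methods another extraction kit. Samples were grouped by their titles.

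The software was edgeR 4.0.16, with limma 3.58.1, under R 4.3.3. After filterByExpr, 15147 of 18540 genes remained. They were scaled by TMM and tested together by the quasi-likelihood method of edgeR with no covariate, and p-values were adjusted by Benjamini-Hochberg; the thresholds were an adjusted p of 0.05 and an absolute log2 fold change of 1, and 4248 genes had an unadjusted p under 0.05. Standard errors came from the quasi-likelihood F statistic. Single genes also had an exact two-sided permutation test on log2 CPM (prior count 2). Exon lengths came from GENCODE vM21, whose annotation may not be that of the counts. The edgeR fit was tested on simulated data.

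All 10 genes are named, as are the pathway genes that were called or did not overlap between groups, and the 3 genes most alike in profile to each called gene; other genes were named after their values were seen. The 10 genes and the lists were chosen with earlier results of these data known. At 28856790 to 38974888 counts per library, a gene with 20 counts has a large counting error. No pair of libraries agreed within sampling noise (smallest chi-square per degree of freedom 21.7). Alternatives were DESeq2 1.42.0, other scaling and filters, a replicate block, marker scores as covariates and leaving out libraries; leaving out Z1C2Z-2 with Z1C2Z-4 and the melanocyte score were added after seeing the data.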

Additional observations from a re-analysis of the deposited data

How the results depend on the processing

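The 3 calls among the 10 genes were made with RLE factors, without a low-count filter and with DESeq2, which called 3 of them lower (Ptgis as well) and gave 333 genes lower over the whole table against 189. Upper quartile factors and a filter at a mean of 1 CPM each left 1 of the 10 lower, since the fold of Ptges lies at the threshold. With no fold threshold 648 and 583 genes passed higher and lower, among them 2 and 2 of the 10 and 1 and 1 of the pathway list, where none was called; DESeq2 called 1 pathway gene higher. With the muscle, hair shaft or melanocyte score, or without both Z1C2Z-2 and Z1C2Z-4, edgeR called 0 genes in either direction, and 2250, 698, 370 and 1980 had an unadjusted p under 0.05. Leaving out 1 library in turn gave 0 to 463 genes higher and 0 to 316 lower, 0 to 1 higher and 0 to 3 lower of the 10 (3 without control-3, with Ptgis), and 0 to 1 pathway genes higher; without control-5, Z1C2Z-1, -2 or -4 no gene was called, while 3223, 4208, 3137 and 3100 had an unadjusted p under 0.05. The sample numbers were not taken to pair the samples, since deviations correlated at -0.101, -0.0623 and 0.323 for numbers 1, 2 and 5 and not every sample correlated best with its own number. With the number as a replicate block 271 genes were higher and 184 lower, with 0 of the 10 higher, 3 lower (Ptgis as well) and 1 pathway gene higher. Signs turned as follows on the log2 scale. With the hair shaft score Ptgs2 was 0.81 (SE 1.40), Ptgis 0.34 (SE 0.47), Ptger2 0.40 (SE 0.42) and Ptger3 0.043 (SE 0.48). With the melanocyte score Ptges was 0.052 (SE 0.30), Ptgds -0.030 (SE 0.43), Ptgis 0.37 (SE 0.73), Ptger2 0.88 (SE 0.51) and Ptger4 -0.12 (SE 0.21). With the muscle score Ptger1 was -0.65 (SE 0.64) and Ptger3 0.51 (SE 0.33), and with the block Ptgs1 was -0.11 (SE 0.19). Ptgs2 kept its sign with the muscle and melanocyte scores, at -0.61 (SE 1.81) and -0.99 (SE 2.14). Leaving out single libraries gave -0.10 to 0.15 for Ptgs1, -0.11 to 0.35 for Ptger1 and -0.24 to 0.13 for Ptger3. In the fits with a marker score, score and group can hardly be told apart, so these estimates are poorly set. The melanocyte list was also chosen after the profile of Ptgds was seen, so its fit cannot judge Ptgds. The cause of the turns was not tested, and the low counts of Ptger1 limit what can be said of it.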

Other observations

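In the wider arachidonic acid metabolism list of the authors' KEGG annotation, 68 genes were in the table and 53 were tested. Of these 4 were called higher and 2 lower in Z1C2Z, where 2.15% and 1.25% of all genes tested were called, and 47 were not called, with a median log2 fold change of 0.06 against 0.01 over all genes. Beside Ptgds, the higher genes were Alox12e, an epidermal lipoxygenase, with 73.1 ± 18.1 CPM in the controls and 185 ± 85.4 CPM in Z1C2Z, Ggt1, a gamma-glutamyltransferase, with 3.17 ± 1.47 and 11.3 ± 3.54 CPM, and Plb1, with 2.17 ± 0.192 and 7.00 ± 2.74 CPM (SD, n = 4 each). Their log2 fold changes were 1.34 (SE 0.30), 1.83 (SE 0.35) and 1.69 (SE 0.28), with edgeR adjusted p of 0.0348, 0.0303 and 0.0299. The lower genes were Ptges and Ptgs2. These genes were named after their values were seen.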
